A study of Mus musculus with 2 samples.

Results

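Export of mRNA from the nucleus and decay of RNA inside it draw on the same transcripts, and 10 genes of these routes were followed here in RNA of the macrophage nucleus. They were taken by symbol, as Nxf1, Nxt1, Thoc1, Thoc2, Thoc5, Alyref, Exosc10, Dis3, Zfc3h1 and Pabpn1, and all 10 were found among the 55536 gene entries of each library. The cells were primary bone-marrow-derived macrophages of the C57BL/6J mouse strain that had been given Lipid A, the part of bacterial lipopolysaccharide that Toll-like receptor 4 recognises, at 100 ng/ml for 60 min. RNA of their nucleoplasmic fraction, labelled as nucleus, was depleted of ribosomal RNA and sequenced as total RNA. The data form 1 group with 2 biological replicates, separate biosamples that carry the same donor label, so an SD here may understate the variation among animals. The library of replicate 1 began with 1 µg of RNA and that of replicate 2 with 500 ng. An untreated library, another time and another fraction were not analysed here, so every value is a level after stimulation and no gene is described as induced or retained. With 1 group there was no test between conditions, and no p-value is given.

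Fully processed mRNA leaves the nucleus through the export receptor NXF1, which works as a pair with its small partner NXT1. The THO complex, with THOC1, THOC2 and THOC5 among its subunits, loads onto RNA during transcription and joins the adaptor ALYREF in the TREX complex, which hands mRNA to NXF1. RNA that is not exported can be degraded by the nuclear RNA exosome, whose nucleases are DIS3 and, in the nucleus, EXOSC10. ZFC3H1 and the nuclear poly(A)-binding protein PABPN1 bring polyadenylated RNA to that machine. Self-control through a kept intron is known for a pair of these genes. Intron 10 of Nxf1 holds a constitutive transport element, an RNA structure that NXF1 itself binds, and an Nxf1 transcript that keeps this intron encodes a shorter protein. PABPN1 promotes retention of the last intron of its own transcript, and that form is a substrate of nuclear decay.

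Transcripts that keep these introns took most of the expected counts of both genes in the first transcript table, so the intron ends are shown on the mm10 assembly, 5′ to 3′ on the plus strand, with intron bases in capitals and exon bases in lower case. Intron 10 of Nxf1 lies at chr19:8765032-8766796 and is 1765 bases long, the second longest of the 20 introns of the gene, whose median is 168 bases. Intron 6 of Pabpn1, the last, lies at chr14:54897273-54898016 and is 744 bases long.
Nxf1 intron 10, 5′ end (chr19:8765017-8765046): gtccagctatatcagGTCAGTTGTAGCCTC
Nxf1 intron 10, 3′ end (chr19:8766782-8766811): TCCCGTTCTTGACAGcgccattcgcgaacg
Pabpn1 intron 6, 5′ end (chr14:54897258-54897287): gggtcgaatctacagGTCAGGATAGATGGG
Pabpn1 intron 6, 3′ end (chr14:54898002-54898031): CCTTCTTTCTTCCAGgggccgggctagagc
All 4 windows were read from GENCODE M21 transcripts that span the exon-intron border without splicing, named Nxf1-209 and Pabpn1-202. Both introns begin with GT and end with AG, and both have GTCAG as their first bases.

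In Nxf1-209 the reading frame runs on into intron 10 for 241 bases and meets the stop codon TGA there. The transcript therefore codes for 418 codons, against 618 in the fully spliced reference transcript Nxf1-201. The stretch of the intron that is read as coding sequence is shown with the stop codon in capitals, from chr19:8765032-8765275, plus strand.
Nxf1 intron 10, coding stretch: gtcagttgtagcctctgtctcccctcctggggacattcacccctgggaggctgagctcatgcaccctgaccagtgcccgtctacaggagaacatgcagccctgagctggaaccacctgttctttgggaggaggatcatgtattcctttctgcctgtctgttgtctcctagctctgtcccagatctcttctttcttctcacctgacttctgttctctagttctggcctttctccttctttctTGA
Pabpn1 has a further short intron, number 5, which the transcript Pabpn1-207 keeps together with intron 6. Its 81 bases at chr14:54897040-54897120, plus strand, add 27 codons and keep the frame open. They are shown whole, with the first and last pair of bases in capitals.
Pabpn1 intron 5: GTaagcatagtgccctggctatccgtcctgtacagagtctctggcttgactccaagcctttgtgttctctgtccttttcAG
Beyond it the frame of Pabpn1-207 runs 7 bases into intron 6 to the stop codon TAG, as it does in Pabpn1-202. Pabpn1-202 thus has 292 codons and Pabpn1-207 has 319, against 302 in the reference transcript Pabpn1-201.

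Levels of the 10 genes spanned more than 2 orders of magnitude in TPM, a length-corrected share of a library, and the receptor stood at the top while its partner stood at the bottom. Of the 10 genes, 9 reached a TPM of 1 in each library, against 39.2% of the 22015 protein-coding genes of the nuclear genome. A TPM of 10 in each was reached by 5 of the 10, against 14.4%. The median of log2(TPM + 1) over the 10 genes was 4.20 ± 0.17 (SD, n = 2), against 0.32 ± 0.05 for the 22015 protein-coding genes. Over the 9 that reached 1 in each library it was 4.93, against 3.04 ± 0.24 for the protein-coding genes that did so. In bulk RNA, fewer cells that express a gene and less RNA per cell cannot be told apart. The deposited gene tables held 21115765 counts on annotated genes in replicate 1 and 15607391 in replicate 2. Protein-coding genes of the nucleus took 25.4% of all TPM in replicate 1 and 18.8% in replicate 2, so that TPM of a protein-coding gene tends to be lower in replicate 2. Transcripts of the mitochondrial genome took 5.10% and 6.17% of TPM, and their part in the levels of nuclear genes was not tested. The SD of a TPM holds the shift in coding share, and between the libraries genes are compared on normalised counts further on. All 10 macrophage markers reached a TPM of 1 in each library, with a sum of 3936 and 3512. Summed TPM of the marker lists of B cells, neutrophils, dendritic cells, erythroid cells and megakaryocytes, and fibroblasts was between 0.11 and 2.66 per library. The 6 markers of T and NK cells had 0 counts in the gene tables, while Cd3d was listed at a TPM of 2.80 and 4.07 in the second transcript table.

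**Figure D1:**
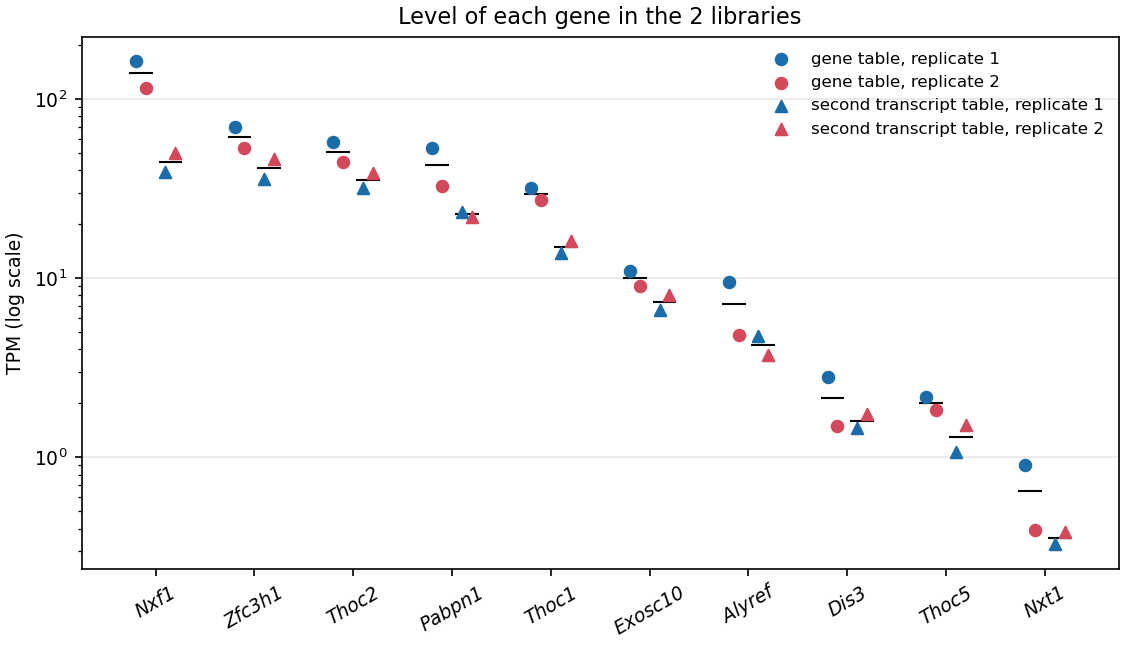
TPM of the 10 genes in each library on a log axis, from the gene table (circles) and from the second transcript table summed per gene (triangles); blue is replicate 1, red is replicate 2 and the bar is their mean. Nxf1 lies highest and Nxt1 lowest in both tables, and Nxf1 has the widest gap between the tables, with a mean of 139 in one and 44.6 in the other.

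Nxf1 (ENSMUSG00000010097.15, chr19:8757073-8770922, plus strand) encodes the export receptor. Its TPM was 163 in replicate 1 and 115 in replicate 2 (139 ± 33.9, SD, n = 2), from 6131 and 5164 counts. It ranked 258 and 255 among the 22015 protein-coding genes. Nxt1 (ENSMUSG00000036992.10, chr2:148672601-148676027, plus strand), for the partner protein, had a TPM of 0.90 and 0.39. These rest on 17 and 7 counts, with exact Poisson 95% intervals of 9.90 to 27.2 and 2.81 to 14.4, which cover counting error only. Within each library Nxf1 was thus 181 and 295 times as high as Nxt1 per unit length. In the second transcript table, made by another quantification of the same libraries, the fold was 119 and 132. Both tables place Nxt1 far below Nxf1 in gene TPM, although the proteins work as a pair. The gene TPM of Nxf1 also holds transcripts other than the fully spliced Nxf1-201. That transcript had a TPM of 23.1 and 8.94 in the first transcript table, so its fold over Nxt1 is smaller.

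The adaptor gene Alyref (ENSMUSG00000025134.2, chr11:120592121-120598365, minus strand) had a TPM of 9.45 and 4.83 (7.14 ± 3.27, SD, n = 2). Nxf1 exceeded it 17.3-fold and 23.8-fold. Its values lay further apart, for their level, than those of Nxf1, and in both libraries Alyref was far below Nxf1 in gene TPM.

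Subunits of the THO complex differed widely. Thoc2 (ENSMUSG00000037475.15, chrX:41794991-41920674, minus strand), for the largest subunit and scaffold, had a TPM of 57.2 and 44.3 (50.7 ± 9.09, SD, n = 2). Thoc1 (ENSMUSG00000024287.8, chromosome 18, plus strand) had 32 and 27.3 (29.7 ± 3.31, SD, n = 2). Thoc5 (ENSMUSG00000034274.11, chr11:4895320-4928867, plus strand) had 2.17 and 1.83 (2.00 ± 0.240, SD, n = 2), from 87 and 66 counts. In gene TPM, Thoc2 was 26.3 and 24.2 times as high as Thoc5 and 1.79 and 1.62 times as high as Thoc1. Those folds between subunits of 1 complex moved little between the libraries, with an SD of the log2 fold of 0.09 for Thoc2 over Thoc5 and 0.10 for Thoc2 over Thoc1. The fold over Thoc1 depends on the measure, and was 2.30 and 2.38 in the second transcript table. Most TPM of Thoc1 lay in transcripts labelled as retained intron. The reference transcript Thoc1-201 had a TPM of 3.58 and 2.87, against 22.5 and 17.0 for Thoc2-201.

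Among the decay genes, the factors that deliver RNA were higher than the nucleases. Zfc3h1 (ENSMUSG00000034163.10, chr10:115384959-115432772, plus strand) encodes a zinc finger protein that links poly(A) RNA to the exosome's helicase. Its TPM was 69.3 and 53.3 (61.3 ± 11.3, SD, n = 2), and its rank 665 and 605. Pabpn1 (ENSMUSG00000022194.15, chr14:54892500-54898169, plus strand) had a TPM of 53.5 and 32.5 (43.0 ± 14.9, SD, n = 2). Zfc3h1 exceeded Pabpn1 by 1.30-fold and 1.64-fold, so the pair lay close together.

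Exosc10 (ENSMUSG00000017264.16, chr4:148558429-148582401, plus strand) encodes the nuclear 3′ to 5′ exonuclease of the exosome. Its TPM was 11.0 and 9.06 (10.03 ± 1.37, SD, n = 2). Dis3 (ENSMUSG00000033166.11, chr14:99075206-99099770, minus strand), for the nuclease at the base of the exosome ring, had 2.8 and 1.5 (2.15 ± 0.919, SD, n = 2). Exosc10 was 3.93 and 6.04 times as high as Dis3, and Zfc3h1 was 24.8 and 35.5 times as high as Dis3. Zfc3h1 over Exosc10 was 6.30 and 5.88. In both libraries the nuclease gene Dis3 was thus far lower in gene TPM than Zfc3h1, the gene for a factor that recruits substrates.

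Ordered by mean TPM, the genes were Nxf1, Zfc3h1, Thoc2, Pabpn1, Thoc1, Exosc10, Alyref, Dis3, Thoc5 and Nxt1. The order was the same in both libraries except for Dis3 and Thoc5, which changed places, with a fold of 1.29 in replicate 1 and 0.820 in replicate 2. In the second table Dis3 was above Thoc5 in both libraries, by 1.36-fold and 1.16-fold. In the second table Nxf1 exceeded Zfc3h1 by only 1.09-fold and 1.08-fold, against 2.35-fold and 2.16-fold in the gene table. Some other neighbours differed by little more than their spread. Thoc2 over Pabpn1 was 0.27 ± 0.25 on the log2 scale (SD, n = 2) and Exosc10 over Alyref was 0.56 ± 0.49. After TPM was rescaled over protein-coding genes alone, which removes the shift between the libraries, Nxf1 had a rescaled TPM of 627 ± 20.2, Zfc3h1 one of 278 ± 7.76 and Thoc2 one of 230 ± 7.73. On that scale the spread was wider for Pabpn1, at 192 ± 26.6, and for Alyref, at 31.4 ± 8.11, than for the 3 highest genes relative to their level.

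Between the replicates, none of the genes tested differed by more than 2-fold after normalisation of counts by the trimmed mean of M values (TMM). Of the 10088 genes with a mean count of at least 50, 1.18% passed 2-fold either way, and 9 of the 10 genes were among those tested, with none past it. DESeq2 size factors gave the same share of 1.18%. Without the count filter 26.1% of 22015 genes passed, and 3.47% of 16382 did in the second table, and none of the 10 genes was among them. Log2 ratios of replicate 2 over replicate 1 ran from -0.25 for Pabpn1 and -0.22 for Alyref to 0.25 for Nxf1. Thoc1, Thoc2 and Exosc10 were at 0.04, 0.01 and 0.06. Nxt1 fell under the count minimum, and without that filter its ratio was -0.74, on 17 and 7 counts.

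**Figure D2:**
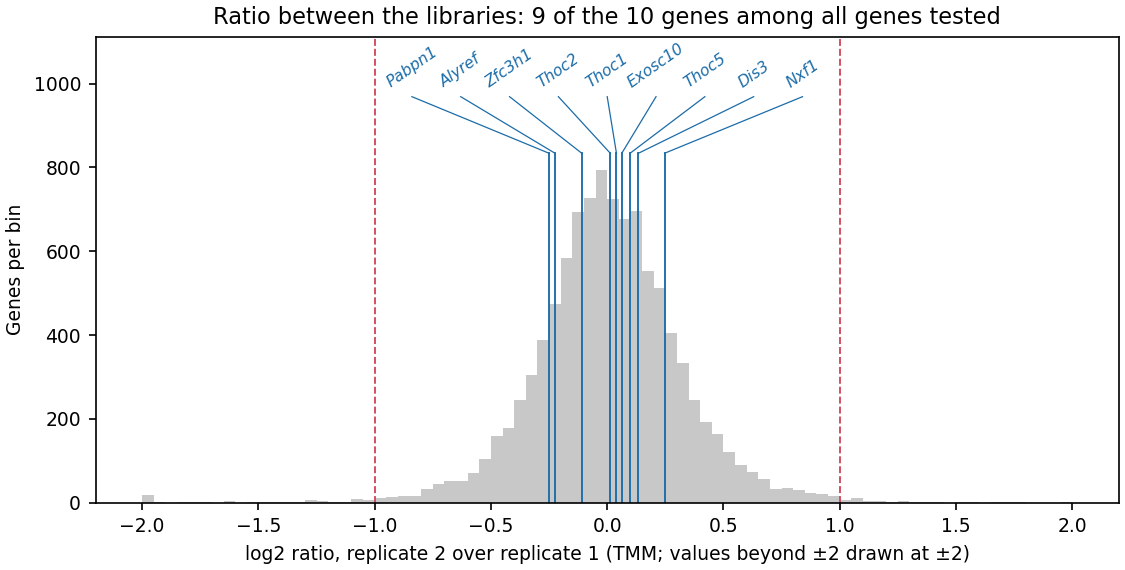
Log2 ratio of replicate 2 over replicate 1 after TMM for all genes with a mean count of at least 50 (grey, genes per bin), with the ratios of 9 of the 10 genes as blue lines; dashed lines mark 2-fold. All 9 lie between -0.25 and 0.25, inside the main body of the distribution.

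The transcript tables divide each gene among its annotated transcripts. The 10 genes have 77 annotated transcripts, of which 28, in 8 of the genes, are labelled as retained intron by GENCODE. That label missed the introns shown above, because Nxf1-209, Pabpn1-202 and Pabpn1-207 are annotated as protein-coding. A structural measure was therefore added after the values were seen: a transcript keeps a whole intron when a single exon of it covers an intron of the gene's reference transcript. By this measure 16 transcripts in 6 of the 10 genes keep an intron, 3 of them annotated as protein-coding. Shares are given both of TPM, which weighs molecules, and of expected counts, which weighs reads and so gives long transcripts more. Reads of unspliced precursor RNA inside these introns cannot be told apart from reads of a finished transcript that keeps them.

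**Figure D3:**
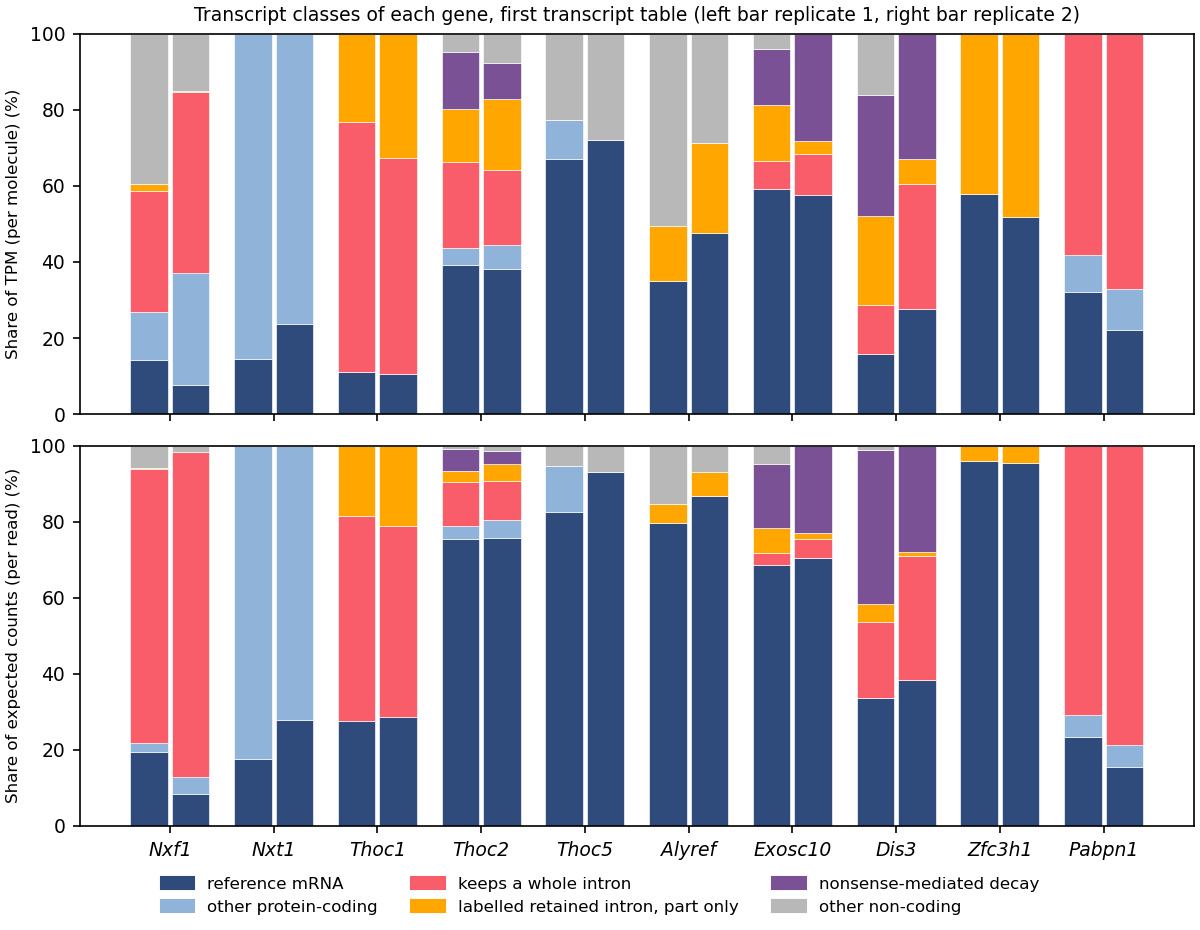
Share of each gene held by classes of transcript, as percent of TPM (top) and of expected counts (bottom) of the first transcript table; the left bar of each pair is replicate 1 and the right bar replicate 2. Nxf1, Thoc1 and Pabpn1 have most of their counts in transcripts that keep a whole intron, while Thoc2, Thoc5, Alyref, Exosc10 and Zfc3h1 have most of theirs in the reference mRNA.

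Most counts of Nxf1 were assigned to the transcript that keeps intron 10. Nxf1-209 was given 4308 and 4306 expected counts in replicates 1 and 2, which is 70.3% and 83.4% of the gene, while the fully spliced Nxf1-201 had 1194 and 438. Its TPM was 46.1 and 48.5, against 23.1 and 8.94 for Nxf1-201. The intron-keeping form thus exceeded the spliced one in both libraries, by 1.99-fold and 5.42-fold in TPM. The second transcript table gave 1.31-fold and 2.52-fold, in the same direction. In the first table the TPM of Nxf1-201 was lower in replicate 2, while that of Nxf1-209 was much the same in both. In the second table Nxf1-201 had a TPM of 11.9 and 8.45 and Nxf1-209 one of 15.7 and 21.3. In the gene table TPM of a protein-coding gene tends to be lower in replicate 2, so equal TPM in the first transcript table is not an equal level. In the second table the gene TPM of Nxf1 was instead higher in replicate 2, with 38.9 in replicate 1 and 50.2 in replicate 2. How far each transcript changed between the libraries was not tested. The intron makes up 43.7% of the 4042 bases of Nxf1-209.

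In TPM, short transcripts took much of Nxf1. Nxf1-203, a non-coding transcript of 431 bases, held 39.5% of the gene's TPM in replicate 1 and 15.1% in replicate 2, but 5.78% and 1.69% of its counts. Nxf1-208, a coding fragment of 505 bases, held 12.7% and 29.3% of TPM and 2.46% and 4.39% of counts. In the second table Nxf1-203 was at 10.02% and 0% of TPM. Shares of these short transcripts thus changed with the library and the table, and the gene TPM of Nxf1 contains them, with a mean of 139 in the gene table and 44.6 in the second table. Each of the 10 genes had a lower mean TPM in the second table. Rescaled over protein-coding genes, the mean TPM of Nxf1 was 627 in the gene table and 339 in the second.

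**Figure D4:**
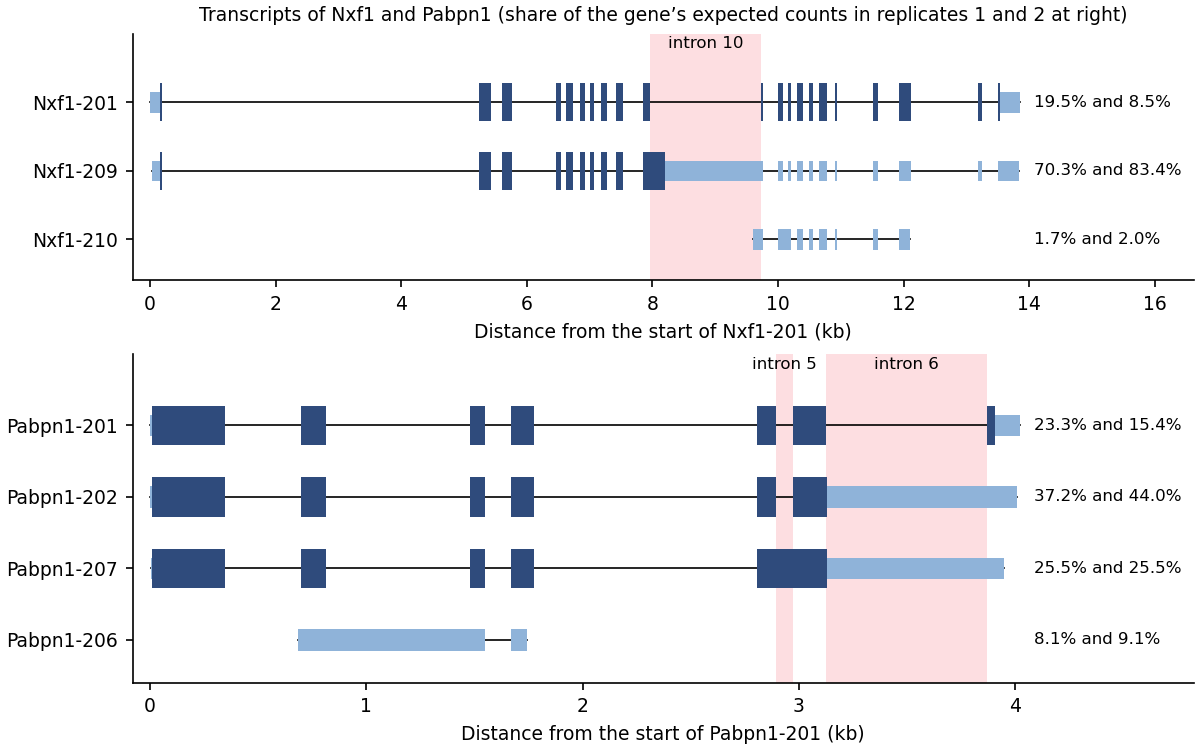
Exons (boxes, coding parts tall and dark) and introns (lines) of the reference and the intron-keeping transcripts of Nxf1 and Pabpn1, drawn to scale in kb from the start of the reference transcript; kept introns 10, 5 and 6 are shaded. Percentages at the right are each transcript's share of the gene's expected counts in replicates 1 and 2, with 70.3% and 83.4% for Nxf1-209.

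Pabpn1 had a like division at its last intron, with less accord between the tables. In the first table Pabpn1-202 held 37.2% and 44.0% of the gene's counts and Pabpn1-207 held 25.5% in both libraries, against 23.3% and 15.4% for the spliced Pabpn1-201. Together the 2 transcripts that keep intron 6 exceeded Pabpn1-201 in TPM by 1.42-fold and 2.37-fold. In the second table their TPM was 0.717 and 0.747 of that of Pabpn1-201, so the spliced form led there. By counts the intron-6 forms led in both tables, by 2.69-fold and 4.51-fold in the first and by 1.33-fold and 1.43-fold in the second. Pabpn1-206, which keeps intron 2, added 8.14% and 9.12% of counts.

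Thoc1 was the member whose transcripts labelled as retained intron took most of its signal in each measure. They held 88.8% and 89.5% of its TPM and 72.4% and 71.2% of its counts, and the second table gave 90.9% and 90.05% of TPM. GENCODE lists 11 such transcripts among the 13 of this gene, and 7 of them keep a whole intron. Those 7 held 65.5% and 56.8% of TPM and 53.9% and 50.1% of counts. The leading one, Thoc1-211, keeps intron 13, of 197 bases, and held 31.6% and 23.1% of TPM, while the spliced reference Thoc1-201 had the remaining TPM outside the labelled transcripts. The short intron 13 is also kept by Thoc1-213 and, together with intron 14, by Thoc1-207. These are shares of whole transcripts, and reads within a single intron were not measured.

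Over 50% of TPM in both libraries came from transcripts that keep a whole intron in 2 of the 6 genes that have such transcripts, Thoc1 and Pabpn1, against 6.86% of the 3032 protein-coding genes measured. By counts it was 3 of 6, with Nxf1 added at 72.0% and 85.4%, against 12.4%. In the second table the call was left with Thoc1 alone by TPM, against 7.75%, and the same 3 genes by counts, against 15.2%. Pabpn1 was at 43.4% and 44.6% of TPM there and Nxf1 at 46.1% and 51.1%. The median share of kept introns over the 3032 genes was 17.9% of TPM, and over the 6 genes it was 31.3%. Of the others, Thoc2 had 22.7% and 19.9% of TPM in such transcripts, led by Thoc2-211, which keeps intron 28. Exosc10 had 7.36% and 10.7%.

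Dis3 was split among several classes, on 158 and 123 counts in all. Dis3-204, which keeps intron 9, held 19.8% and 32.6% of its counts, and 40.9% and 50.05% in the second table. Dis3-205, annotated as a target of nonsense-mediated decay, held 26.5% and 15.7%, and the spliced Dis3-201 held 33.7% and 38.5%. Dis3-206, of 672 bases and labelled as retained intron, held 23.3% and 6.71% of TPM but 4.70% and 0.894% of counts, and 29.0% and 29.5% of TPM in the second table. No class of Dis3 thus reached most of the counts in both libraries of the first table.

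Counted by GENCODE's labels instead, transcripts not annotated as protein-coding held over 50% of TPM in both libraries in 4 of the 9 genes that reached a TPM of 1, namely Thoc1, Thoc2, Alyref and Dis3, against 18.9% of the 8622 genes measured. By counts it was 2, Thoc1 and Dis3, against 12.3%. The second table gave 6 of 9 by TPM, with Exosc10 and Zfc3h1 added, against 32.3%, and 3 by counts, Thoc1, Exosc10 and Dis3, against 18.1%. Transcripts labelled as retained intron passed 50% in Thoc1 alone in the first table, against 8.99% of genes by TPM and 7.38% by counts. In the second table they did so in Thoc1, Zfc3h1 and Dis3 by TPM, against 13.2%. For Alyref the leading transcript changed with the scale in replicate 1 of the first table and in both libraries of the second. In replicate 2 of the first table the spliced Alyref-201 led on both scales, with 47.5% of TPM. The non-coding Alyref-202, of 648 bases, held 50.5% and 28.7% of TPM but 15.3% and 6.82% of counts, while the spliced Alyref-201 held 79.7% and 86.7% of counts. Zfc3h1-203, of 424 bases, held 27.3% and 30.9% of TPM but 1.47% and 1.77% of counts, and the reference Zfc3h1-201 led on both scales there, with 57.9% and 51.9% of TPM and 96.0% and 95.5% of counts. In the second table Zfc3h1-201 held 48.0% and 34.3% of TPM and 93.5% and 91.6% of counts. Zfc3h1-203 held 32.2% and 46.7% of TPM there, so it led by TPM in replicate 2. Thoc2-201 held 75.5% and 75.6% of counts and 39.3% and 38.3% of TPM. Thoc2-209, a coding fragment of 462 bases, was at 0% in the first table and at 20.8% and 19.6% of TPM in the second. Alyref-203, of 711 bases and labelled as retained intron, held 14.5% and 23.8% of TPM, and 20.6% and 31.1% in the second table. Thoc2, Alyref and Zfc3h1 had most of their counts in the reference mRNA in both libraries of either table.

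Exosc10-201, the reference transcript, held 68.5% and 70.4% of counts in the first table and 36.1% and 44.5% in the second, so its share rests on the quantification. Exosc10-205, of 306 bases and annotated as a target of nonsense-mediated decay, was at 0% and 9.81% of TPM in the first table and at 19.96% and 27.1% in the second. Thoc5-201 held 82.6% and 93.0% of counts. The non-coding Thoc5-205 and Thoc5-206, of 592 and 600 bases, held 10.6% and 7.14% and 12.04% and 20.9% of TPM in the first table, and 11.3% and 26.0% and 8.59% and 14.7% in the second. Short transcripts thus again varied between the tables. Both annotated transcripts of Nxt1 code for the same number of codons, 140, and its 17 and 7 counts do not fix their shares, which the tables gave in opposite order.

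Other genes overlap 7 of the 10 on the map, and whether the counting used strand is not known here. Within intron 2 of Zfc3h1, on the same strand, lies the entry A130012E19Rik, of 3135 bases, with 1200 and 804 counts, against 6885 and 4531 for Zfc3h1. It covers none of the reference exons. Usp14 lies opposite Thoc1 and covers 2169 bases of its reference exons, with 774 and 567 counts, and Pibf1 lies opposite Dis3 over 325 bases, with 762 and 416 counts. These are counts of the whole overlapping gene, against 1243 and 907 for Thoc1 and 158 and 123 for Dis3. How reads in the shared bases were divided cannot be told. Gm20521, a protein-coding entry on the same strand that shares 998 bases with reference exons of Pabpn1, had 2.97 and 0 counts. The pseudogenes Gm13204 in intron 13 of Exosc10 and AA413626 in intron 13 of Thoc5 had 75 and 52 counts and 2 and 1 counts. Gm7657, opposite Thoc2, had 0 counts in both libraries.

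The 10 genes were set beside 86 other genes of export, RNA decay and the poly(A) tail, in 11 lists with 96 genes in all. These lists include genes that act in the cytoplasm, such as cofactors of the cytoplasmic exosome. Among the 86, 76 reached a TPM of 1 in each library and 28 reached 10, and their median of log2(TPM + 1) was 2.69 ± 0.20 (SD, n = 2). Of the 70 that could be tested, 1 passed 2-fold between the replicates, against 1.18% of all 10088 genes tested. This was Erh, which binds RNA-processing factors, with 60 and 89.2 counts and a log2 ratio of 1.06.

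**Figure D5:**
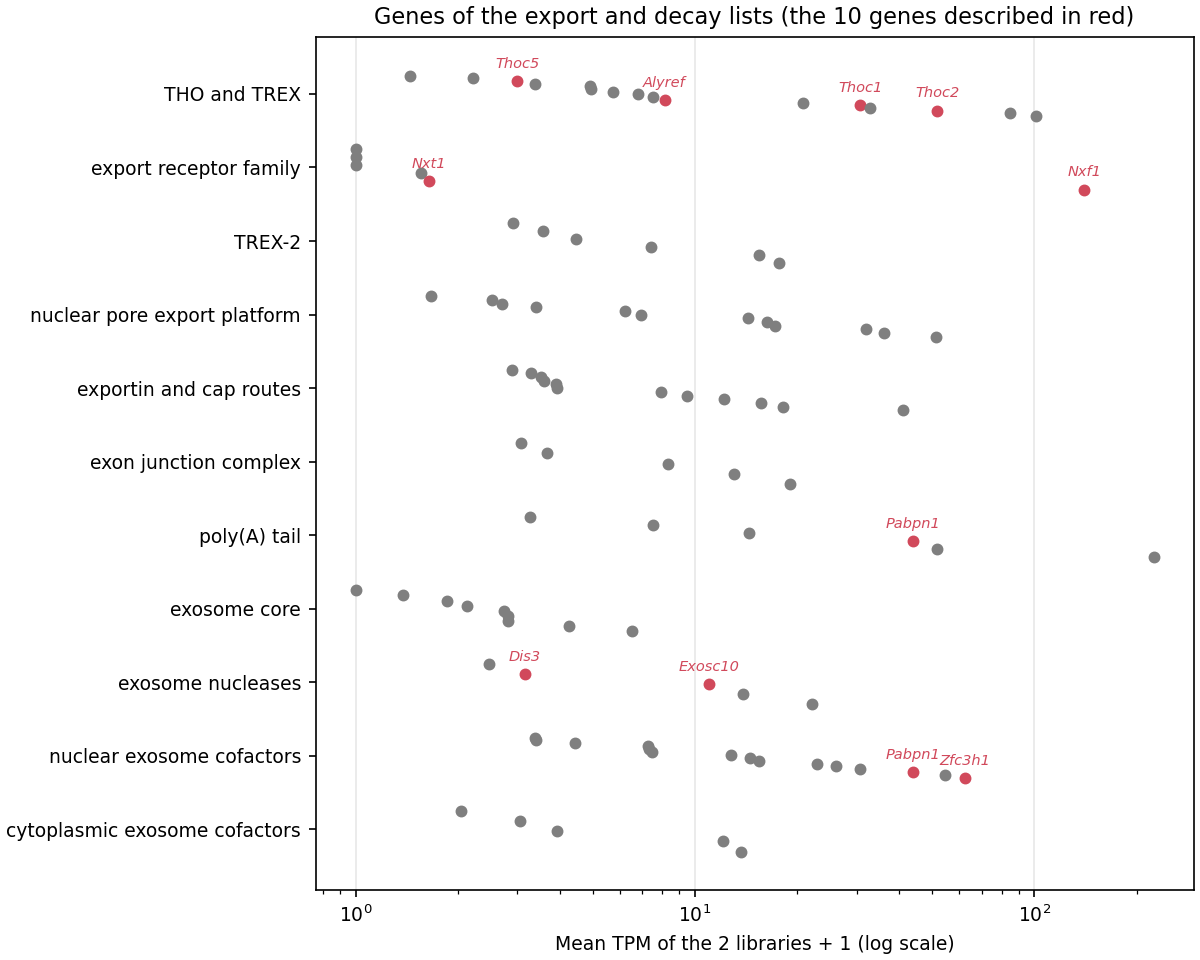
Mean TPM of the 2 libraries plus 1, on a log axis, for every gene of the 11 lists of export and decay genes; each dot is a gene, and the 10 genes described are red and named (Pabpn1 is in 2 lists). Exosome core genes lie to the left, with 0 of 9 at a TPM of 10 or more in each library, and Nxf1 stands apart from the rest of its family.

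In the export receptor family of 6 genes, Nxf1 alone reached a TPM of 1 in each library. Nxf2, Nxf3 and Nxf7 had 0 counts in both libraries, and Nxt2, the paralogue of Nxt1, had a TPM of 0.67 and 0.44. Neither partner gene was thus high. Of the 16 genes of THO and TREX, 14 reached that level and 6 reached a TPM of 10. Zc3h11a led with 111 and 88.6, followed by Ddx39b, the RNA helicase of TREX, with 99.98 and 67.9, and Alyref2 was lowest at 0.65 and 0.24. Thoc2 and Thoc1 are among the 6, and Thoc5 and Alyref are not.

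All 6 genes of TREX-2, which tethers mRNA to the nuclear pore, reached a TPM of 1, and 2 reached 10, Sem1 with 19.6 and 13.7 and Eny2 with 14.9 and 13.9. Cetn2 was the lowest at 1.75 and 2.07. Every TREX-2 gene was thus below Thoc2 and Thoc1 in both libraries. For the 12 genes of the pore's export platform, 11 and 6 reached these levels, with Ranbp2 at 58.3 and 42.3, Nup98 at 41.5 and 28.3 and Nupl2 at 0.82 and 0.51. Exportin and cap-binding genes numbered 12, all at 1 or more and 4 at 10 or more. Srrt, whose protein joins the cap to decay and export factors, led with 43.2 and 37.0, and Xpo1, the exportin for proteins and some RNAs, was the next by mean TPM, with 21.9 and 12.5. Phax was lowest by mean at 2.26 and 1.51. The exon junction complex marks spliced mRNA for export and surveillance, and all 5 of its genes reached 1, led by Casc3 at 20.2 and 16.0 and Eif4a3 at 11.3 and 12.8, with Magohb lowest at 2.94 and 1.2.

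Genes of the exosome ring were low. Of 9 core subunits, 6 reached a TPM of 1 in each library and none reached 10, and on the scale of log2(TPM + 1) their median was 1.41 ± 0.21 (SD, n = 2). Exosc9 was highest at 6.64 and 4.43, followed by Exosc7 at 3.71 and 2.79, and Exosc6 was listed at 0 counts in both. Dis3, at 2.8 and 1.5, lay at the level of these ring genes, and Exosc10 lay above each of them in both libraries. Among the 5 nucleases, Xrn2, which degrades RNA from its 5′ end, had 25.5 and 16.8 and Dis3l2 had 14.9 and 10.8, and Dis3l was lowest at 1.52 and 1.44.

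Nuclear cofactors of the exosome were higher. All 15 reached a TPM of 1 and 8 reached 10 in each library, and their median was 3.82 ± 0.48 (SD, n = 2). Zfc3h1 led, followed by Rbm7, a subunit of the nuclear exosome targeting complex, with 64.2 and 43.0. Mphosph6 was lowest at 2.69 and 2.09. The cofactor median was above that of the ring in both libraries, while the lowest cofactors lay below Exosc9 and Exosc7. Cofactors of the cytoplasmic exosome numbered 5, all at 1 or more and none at 10 in both, led by Skiv2l at 15.7 and 9.75 and Hbs1l at 13.2 and 8.95, with Pelo at 1.02 and 1.08. Among the 6 poly(A) tail genes, Pabpc1, the cytoplasmic poly(A)-binding protein, had 219.7 and 227.7 and Papola, the poly(A) polymerase, had 62.0 and 39.2, with Papolg lowest at 2.32 and 2.22. Pabpn1 was the third highest of that list.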

How the data were processed

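Per library, 3 tables were used: 1 of genes and 2 of transcripts, from different quantifications. They were made on mm10 with GENCODE M21, per the file headers. Aligner, quantifiers and use of strand: not given in the sources used here. Expected counts of the gene and first transcript tables, and estimated counts of the second, are the authors' deposited numbers of reads or fragments, which need not be whole. TPM values were also deposited by the authors. The authors' deposited percent of a gene held by each transcript, and their interval bounds of TPM, held here as a score, support no printed value. The second table was summed per gene here. Spike-in and other entries that are no annotated mouse gene did not enter library sizes. Sequenced fragments had no molecular identifiers, so intervals on counts cover counting error only.

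Expected counts were rounded and normalised by TMM (edgeR 4.0.16, R 4.3.3), for genes with a mean count of at least 50, with 0.5 added before ratios. A gene was called past 2-fold. DESeq2 1.42.0 size factors were an alternative. The ratio step was tested on simulated data. Other steps used numpy 2.4.6, pandas 2.3.3, scipy 1.17.1 and matplotlib 3.10.9. The reference transcript is the APPRIS principal one with the longest coding sequence. Sequences were read from GENCODE M21 transcripts, and coordinates are 1-based.

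All 10 genes were named, with the 2 highest and the lowest gene of each list by mean TPM, every gene that overlaps one of the 10, and transcripts with at least 20% of a gene's TPM in any table. Other intron-keeping transcripts were named after their values were seen. The genes and lists were chosen with earlier results of these data known.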

Additional observations from a re-analysis of the deposited data

How the results depend on the processing

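The median of log2(TPM + 1) over the 10 genes was 4.20. It was 4.93 over the genes with a TPM of at least 1, 3.53 in the second transcript table and 6.32 after TPM was rescaled over protein-coding genes. With 0.1 in place of 1 as pseudocount it was 4.11, and without either replicate it ran from 4.08 to 4.31. The count of genes past 2-fold between the replicates was 0 with TMM, with DESeq2 size factors, without the filter and in the second table. Genes led by transcripts not annotated as protein-coding numbered 4, with 6 in the second table and 2 by expected counts. Classing transcripts by exon structure, an alternative chosen after seeing the data, gave 2, Thoc1 and Pabpn1. That is a different quantity, since the leading intron-keeping transcripts of Pabpn1 are annotated as protein-coding. Genes with over 50% of TPM in transcripts labelled as retained intron numbered 1 (Thoc1), with 3 in the second table (Thoc1, Zfc3h1 and Dis3) and 1 by expected counts. Genes led by intron-keeping transcripts numbered 2, with 1 in the second table and 3 by counts in either table, all chosen after seeing the data. Leaving out either replicate left these 3 counts at 4, 1 and 2. The mean log2 fold kept its direction for 18 of 18 pairs of genes in CPM, in the second table and without replicate 2, and for 17 without replicate 1, the exception being Dis3 over Thoc5. In CPM, which is not corrected for length, Nxf1 over Zfc3h1 was 0.891 and 1.14 and Pabpn1 over Thoc1 was 1.19 and 0.972, so single libraries disagreed for these pairs. No paired analysis was possible because the data hold 1 group. Transcript shares are estimates, and the low counts of Nxt1 (17 and 7), Thoc5 (87 and 66) and Dis3 (158 and 123) limit what can be said of their transcripts.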

Other observations

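Among the other export and decay genes, the share led by transcripts that keep a whole intron was close to that of all genes. Over 50% of TPM in both libraries came from such transcripts in 2 of 31 genes, against 6.86% of all protein-coding genes measured, and over 50% of expected counts in 4 of 31, against 12.4%. The genes are named after their values were seen. Rbm7, which brings unprocessed nuclear RNA to the exosome, had 60.8% and 61.0% of TPM and 70.7% and 70.9% of counts in such transcripts, and 66.4% and 67.0% of TPM in the second table. Chtop, whose protein is an export adaptor of TREX, had 62.6% and 77.0% of TPM and 77.9% and 88.4% of counts, and 48.0% and 55.7% of TPM in the second table. Eny2 of TREX-2 passed by counts alone, with 60.3% and 66.2%, and had 27.4% and 32.1% of TPM. Exosc8 of the exosome ring, on 58 and 43 counts, had 56.4% and 78.7% of counts and 41.1% and 62.6% of TPM.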
